A study of Mus musculus with 48 samples.

Results

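The interferon-gamma inducible GTPases described here are 10 mouse genes, 6 guanylate-binding proteins (Gbp2, Gbp3, Gbp4, Gbp5, Gbp6 and Gbp7) and 4 immunity-related GTPases (Irgm1, Irgm2, Igtp and Iigp1). They were named by symbol, with earlier results of these data known, and each symbol matched 1 of the 51789 gene identifiers in the count table. The table holds 48 libraries of 3′ RNA tags from mouse macrophages, in 16 groups of 3. There are 8 macrophage populations, each exposed for 4 h to the code-named compound AP-3-84 at 10 µM or to its DMSO vehicle.

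The labels give the strain of every library as C57BL/6. A pair of populations came from the peritoneum: ascites macrophages from mice that had carried ID8 ovarian cancer cells for 45 days, and macrophages drawn by thioglycollate (1 ml of a 3% solution, 4 days before collection), called thio here. Both were sorted on magnetic beads as F4/80+ cells. The ascites libraries carry the genotype entry B6(Cg)-Tyrc-2J/J and the thio libraries a wild-type entry. The other 6 populations are bone marrow-derived macrophages (BMDM), grown for 6 days in M-CSF at 10 ng/mL. M0 cells were left unpolarized, M1 cells had 24 h of LPS at 100 ng/mL with interferon-gamma at 50 ng/mL, and M2 cells had 24 h of IL-4 (10 ng/mL) with IL-13 (10 ng/mL). Each was made from wild-type (WT) and from p53 knockout (KO) marrow. The genotype entry reads wild-type for all 36 BMDM libraries, so the KO groups rest on the sample names and the series design. The sources used here give no ages or sexes of the mice, no word on pooling of animals, and no statement that replicates were separate animals or cultures. The p-values below therefore measure only the spread between these libraries, which may be technical.

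These GTPases are made by macrophages when interferon-gamma binds its receptor, whose kinases are Jak1 and Jak2. The signal reaches their promoters through GAS elements and through ISRE elements, which factors of the IRF family bind and which also serve type I interferons. The proteins then assemble on the vacuoles and membranes of intracellular pathogens. Guanylate-binding proteins coat vacuoles and bacteria and open them to the cytosolic defences. Of the immunity-related GTPases, Iigp1 is an effector that loads onto parasite vacuoles, while Irgm1, Irgm2 and Igtp regulate the effectors and guard the cell's own membranes.

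The promoter sequences are shown because interferon factors act through these elements and because 4 members that are called together below are neighbours. In mouse build GRCm38 with GENCODE M21, Gbp5 (chr3:142493978-142522344), Gbp7 (chr3:142530342-142550149), Gbp3 (chr3:142560026-142573209) and Gbp2 (chr3:142620602-142638008) lie in 1 cluster on the plus strand. Gbp4 (chr5:105115767-105139586) and Gbp6 (chr5:105270702-105293698) are on the minus strand of chromosome 5. Igtp (chr11:58199556-58207591) and Irgm2 (chr11:58199618-58222782) overlap on the plus strand of chromosome 11, and Irgm1 (chr11:48861968-48871683) is on its minus strand. RefSeq promoter windows (GRCm38.p6, 250 bases before to 50 after the start) were matched for 7 of the 10 members, with 8 windows. They were searched on both strands for the ISRE core (GAAA, 2 bases of any kind, GAAA) and the GAS core (TTCNNNGAA). An ISRE core was in a window of each of the 7 matched members, against 3.44% of 32851 RefSeq promoter windows. A GAS core was in 4 (Gbp5, Gbp7, Igtp and Irgm2), against 8.3% of windows, and these 4 held both, against 0.454%. The stretches below end before the RefSeq start and hold no annotated exon base of the gene, and those of Gbp5 and Irgm2 lie within the GENCODE span given above, between exons of a longer transcript. They run 5′ to 3′ on the coding strand and carry the matched cores in capitals. They show both GAS-bearing chromosome 3 members, the Gbp3 window with ISRE cores only, and the similar Igtp and Irgm2 windows.
Gbp3 (chr3:142559794-142560025, plus strand): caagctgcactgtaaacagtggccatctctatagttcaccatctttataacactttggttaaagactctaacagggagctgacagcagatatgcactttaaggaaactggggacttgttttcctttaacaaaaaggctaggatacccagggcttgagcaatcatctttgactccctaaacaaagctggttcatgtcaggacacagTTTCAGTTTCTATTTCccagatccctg
Gbp5 (chr3:142496684-142496899, plus strand): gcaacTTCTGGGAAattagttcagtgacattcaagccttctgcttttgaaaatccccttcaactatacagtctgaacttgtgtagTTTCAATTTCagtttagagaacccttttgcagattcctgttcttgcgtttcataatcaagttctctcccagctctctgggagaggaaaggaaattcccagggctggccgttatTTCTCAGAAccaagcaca
Gbp7 (chr3:142530086-142530335, plus strand): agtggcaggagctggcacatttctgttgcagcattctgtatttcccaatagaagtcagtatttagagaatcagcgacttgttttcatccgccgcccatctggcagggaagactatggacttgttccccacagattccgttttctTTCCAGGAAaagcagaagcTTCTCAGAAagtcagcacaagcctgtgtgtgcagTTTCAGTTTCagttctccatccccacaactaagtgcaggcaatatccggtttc
Igtp (chr11:58199306-58199555, plus strand): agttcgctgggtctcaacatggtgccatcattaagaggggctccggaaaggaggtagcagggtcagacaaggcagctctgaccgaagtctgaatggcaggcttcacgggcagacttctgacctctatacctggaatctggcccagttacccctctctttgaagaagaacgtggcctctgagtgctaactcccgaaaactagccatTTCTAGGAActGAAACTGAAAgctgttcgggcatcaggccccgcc
Irgm2 (chr11:58214727-58214976, plus strand): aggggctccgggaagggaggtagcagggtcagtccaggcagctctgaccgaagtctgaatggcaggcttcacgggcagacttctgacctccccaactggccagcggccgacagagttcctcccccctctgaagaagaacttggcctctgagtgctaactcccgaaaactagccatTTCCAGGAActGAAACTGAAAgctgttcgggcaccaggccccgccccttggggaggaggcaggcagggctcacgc

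In Gbp3 the capitals are a pair of overlapping ISRE cores, which begin 45 and 39 bases before the start. In Gbp5 and Gbp7 there is 1 ISRE core, 165 and 53 bases before the start, with 2 GAS cores. The ISRE cores of these 3 genes read on the opposite strand. In Igtp and Irgm2 the GAS core stands just before the ISRE core in both. The unprinted windows of Gbp2 and Irgm1 held ISRE cores only, starting 59 bases before the Gbp2 start and 30 and 24 bases before the Irgm1 start. Gbp4, Gbp6 and Iigp1 were not in the promoter table. A match is a description of these letters and not a bound site.

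**Figure D1:**
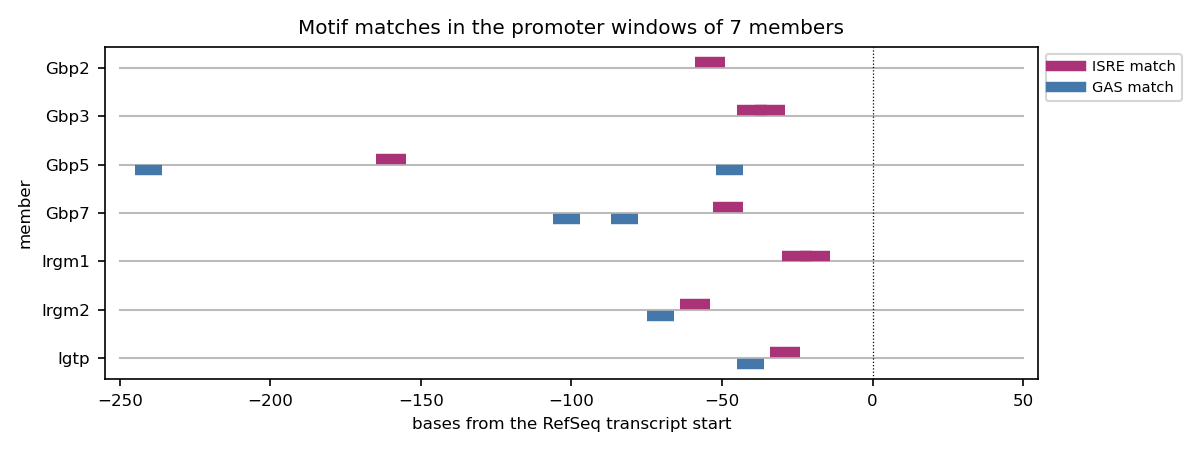
Positions of ISRE and GAS core matches in bases from the transcription start, for the 7 members with a RefSeq promoter window. Each of the 7 has a window with an ISRE match, and Gbp5, Gbp7, Igtp and Irgm2 also hold a GAS match.

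Total counts ran from 15532373 to 19417581 over the peritoneal set of 12 libraries and from 3081707 to 4645148 over the BMDM set of 36. The members' own counts over all 48 libraries ran from 1574 (Gbp4) to 20684 (Gbp7). Gbp4 passed the filter on low counts only through the groups where it is high, so it is given by its counts and levels, and the counts of members called below are over the other 9. Counts of members called in alternative analyses may include Gbp4, and the shares of all genes called there are not given. Gbp6 held 22 counts over the WT and 10 over the KO M0 vehicle libraries. In comparisons with these groups it too reached the filter only through groups where it is higher. Its folds there are a description, and the counts of members called include it. Gbp6 shares 74.5% of its 30-base transcript stretches with other genes, mostly with the overlapping model Gm43302, which is at 0 counts in all 48 libraries, so its level is uncertain. Iigp1 is the member on chromosome 18. Gbp4 overlaps Gbp8 and Gbp9 on its strand, and Igtp overlaps Irgm2, so how the authors' counting split reads among these is also uncertain. The p53 target Cdkn1a, which checks the genotype, lay between 555 and 1119 CPM (counts scaled to a common library total) in the WT and between 34.1 and 292 CPM in the KO BMDM libraries. Of the polarization markers, Il1b lay between 224 and 1406 CPM in M1, at most at 240 CPM in M2 and at most at 214 CPM in M0 libraries. Its M1 and M2 ranges thus overlapped at their edges. Retnla lay at 406 CPM or more in M2 and at most 6.55 CPM elsewhere in BMDM. Nos2 was at 1.51 to 17.7 CPM in M1, 0 to 7.33 CPM in M2 and at most 0.767 CPM in M0 libraries, so it did not set M1 apart from M2. One library stood apart by its markers: KO M2 vehicle replicate 3 had a summed macrophage marker level of 5894 CPM, against 18413 and 9340 CPM in the other replicates, and a summed neutrophil marker level of 3132 CPM, against 398 and 689 CPM. WT M2 vehicle replicate 1 also had a high neutrophil marker level, given with its results.

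Levels are in CPM with trimmed-mean scaling, computed separately in the peritoneal and in the BMDM libraries, so levels set across these 2 sets are a description. A 3′ tag is counted about once per transcript, so levels are compared between members without a length. The summed level of the 10 members was highest in ascites vehicle macrophages, at 673 ± 51.5 CPM (SD, n = 3 here and below), and lowest in thio macrophages, at 50.0 ± 2.92 CPM. Between them came KO M1 (403 ± 35.5 CPM), WT M1 (309 ± 17.0), KO M2 (294 ± 103), WT M2 (192 ± 49.6), WT M0 (114 ± 30.4) and KO M0 (111 ± 15.5). The ranges of WT M1 and KO M2, of KO M2 and WT M2, of WT M2 and WT M0, and of WT M0 and KO M0 overlapped. The order of these neighbours is thus a description, and differences in the summed level were not tested. Ascites macrophages had the highest vehicle mean for 8 of the 10 members. Gbp2 was the first exception, at 120 CPM in KO M2 and 101 CPM in WT M2 against 75.9 CPM in ascites cells, and Igtp the other, at 79.5 CPM in KO M1 against 65.6 CPM in ascites cells. Thio cells had the lowest mean for 7 members. The lowest mean was in KO M0 for Gbp3 and Gbp6 and in WT M2 for Irgm2.

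**Figure D2:**
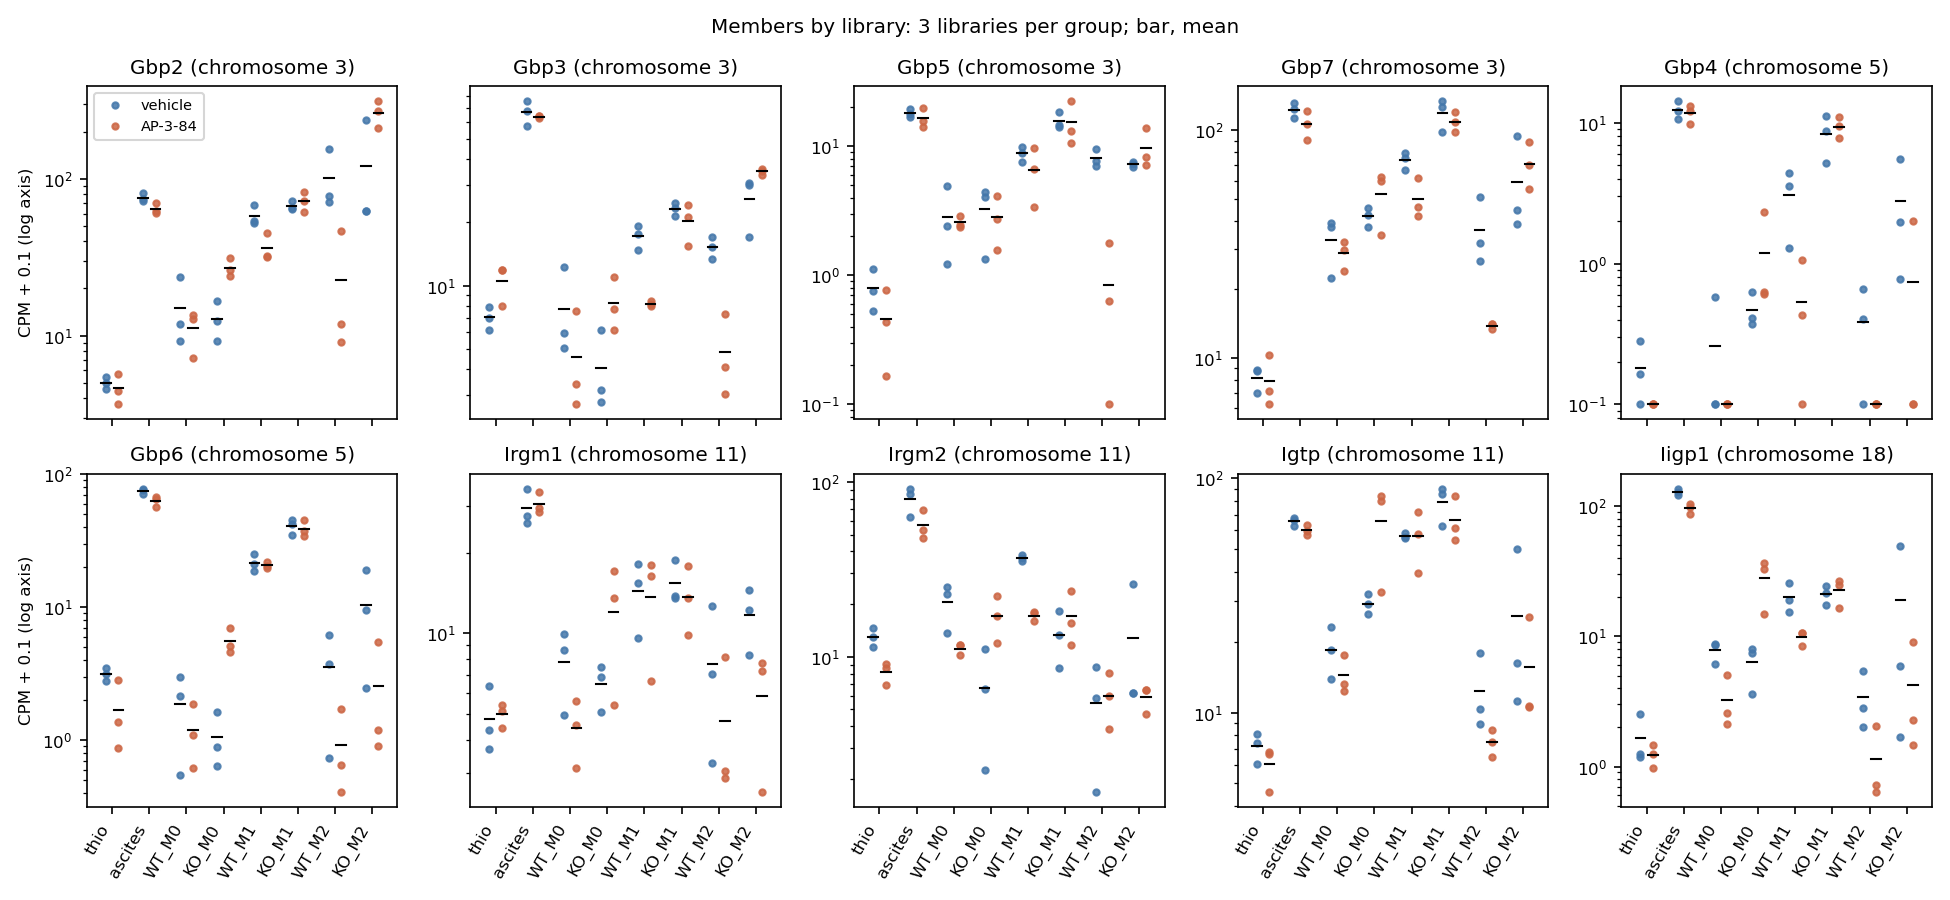
Level of each member in CPM plus 0.1 (log axis) in every library, 3 vehicle and 3 AP-3-84 libraries per population, with a bar at each group mean. Ascites libraries sit far above thio libraries for all 10 members, and the WT M2 AP-3-84 libraries of Gbp2, Gbp3, Gbp5 and Gbp7 lie below their vehicle libraries.

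Comparing the 2 peritoneal populations without compound asks how macrophages from tumour ascites differ from elicited ones. All 9 members tested were higher in ascites macrophages, against 20.3% of the 16955 genes tested that were called higher at an adjusted p under 0.05. The 3 ascites libraries lay above all 3 thio libraries for each of the 9, as for 26.7% of genes. The median log2 fold change of the 9 was 3.92, beside 0.05 over all genes. In bulk RNA, more cells of an expressing type and more RNA per cell cannot be told apart.

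Iigp1, the vacuole-loading effector, was at 129, 136 and 122 CPM in ascites libraries and at 2.43, 1.15 and 1.08 CPM in thio libraries. Its log2 fold change was 6.39 (SE 0.20, adjusted p = 2.17e-12). The ranges are far apart. Gbp4 was at 10.6, 14.1 and 12.1 CPM in ascites libraries and at 0.0638, 0.182 and 0 CPM in thio libraries, with 687 counts in all in the former and 4 in the latter.

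Gbp5, which promotes inflammasome activation, was at 17.7, 19.4 and 16.9 CPM against 1.02, 0.425 and 0.651 CPM (log2 fold change 4.68, SE 0.32, adjusted p = 3.76e-09). Gbp6 was 4.61 higher on the log2 scale (SE 0.23), Gbp2 3.95 higher (SE 0.13), Gbp7 3.92 (SE 0.17) and Gbp3 3.26 (SE 0.15). The regulators of the immunity-related class had the smallest log2 fold changes. Irgm1 had a log2 fold change of 2.64 (SE 0.18), Irgm2 of 2.63 (SE 0.17) and Igtp of 3.21 (SE 0.13). Irgm2 was at 85.1, 91.0 and 63.3 CPM in ascites libraries and at 12.8, 11.3 and 14.5 CPM in thio libraries. These 9 calls held in the 13 alternative analyses, and the adjusted p-values of the members not given here ran no higher than 1.91e-08.

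The rest of the pathway was read from 7 gene lists. Of the other interferon-inducible GTPases, 11 of 13 tested were higher in ascites cells and 0 lower, among them Mx1 (log2 fold change 6.18) and Tgtp2 (5.62). Of interferon transcription factors, 9 of 10 were higher, with Irf7 at 5.71, and Irf8 was lower, where 13.4% of all genes were called lower. Of other interferon-gamma targets, among which Ifi47 is itself a GTPase gene, 17 of 18 were higher, with the chemokine gene Cxcl10 at 8.10, and of type I interferon-stimulated genes 20 of 20, with Ifit2 at 7.42. Inhibitors of the pathway were also higher (8 of 9, Usp18 at 3.96). Of ligands, receptors and kinases, 5 of 7 were higher and Jak1 was lower. The 19 partners of the GTPases in pathogen clearance split, 5 higher (Nlrp3 1.94, Casp4 1.45) and 8 lower.

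Markers of other cells differed between the same groups. The summed level of 8 ovarian epithelial or ID8 markers was 211 to 249 CPM in ascites vehicle libraries, with none at 0, and 2.98 to 4.98 CPM in thio libraries, with Epcam and Msln at 0. The 12 T and NK cell markers summed to 261 to 292 CPM against 7.59 to 11.6 CPM, nearly all of it Ccl5, with Ncr1, Nkg7, Gzma and Gzmb at 0 in both groups and Cd3e at 0.0381 CPM on average in ascites cells. The 6 neutrophil markers summed to 97.4 to 130 CPM against 225 to 241 CPM. The part of these cells in the members' difference was not tested.

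M1 polarization adds the inducing cytokine itself to BMDM. In WT cells 6 of the 9 members tested were higher in M1 than in M0, against 8.01% of 11779 genes tested. In KO cells 8 were higher, against 22.8% of genes. In each genotype 8 of the 9 had M1 libraries all above the M0 libraries, as for 19.6% of genes in WT and 25.1% in KO cells. The median log2 fold change of the 9 was 1.37 in WT and 1.75 in KO cells, beside 0.00 and -0.01 over all genes.

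Gbp6 showed the largest fitted rise among the 9 members other than Gbp4. Its M0 libraries held only 22 counts in WT and 10 in KO cells, so its folds here are a description. In WT cells it went from 0.449, 2.87 and 2.04 CPM to 20.9, 25.2 and 18.6 CPM (log2 fold change 3.59, SE 0.59, adjusted p = 0.000102). In KO cells it went from 0.786, 1.54 and 0.541 CPM to 41.8, 34.9 and 45.1 CPM (5.39, SE 0.65, adjusted p = 2.38e-07). No M1 library came near an M0 library in either genotype. Gbp4 had 34 counts over the 3 WT M1 libraries and 2 over the M0 libraries, and in KO cells 99 and 4.

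Gbp2, which is recruited to Toxoplasma vacuoles, went from 9.20, 23.4 and 11.8 CPM to 53.4, 51.9 and 68.2 CPM in WT cells (1.97, SE 0.51, adjusted p = 0.00932) and rose by 2.40 (SE 0.52) in KO cells. Gbp7, the most counted member, went from 22.2, 39.0 and 37.6 CPM to 75.7, 66.8 and 79.0 CPM in WT cells (1.17, SE 0.27, adjusted p = 0.00338) and rose by 1.51 (SE 0.27) in KO cells. Gbp3 rose by 1.15 (SE 0.33) and 2.53 (SE 0.36), and Gbp5 by 1.66 (SE 0.47) and 2.27 (SE 0.46), in WT and KO cells. Among the regulators Igtp rose in both, by 1.61 (SE 0.40, adjusted p = 0.00683) and 1.45 (SE 0.39, adjusted p = 0.00388). Irgm1 passed the test in KO cells (1.27, SE 0.46, adjusted p = 0.0259) and was at 0.89 in WT cells (adjusted p = 0.191). Iigp1 likewise passed in KO cells (1.75, SE 0.69, adjusted p = 0.0421) and was at 1.37 in WT cells (SE 0.67, adjusted p = 0.179). Irgm2 passed in neither genotype (0.83, adjusted p = 0.213, and 1.02, adjusted p = 0.0951).

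The difference between the genotypes in this M1 response was tested itself. It passed for 1 member, Gbp3 (1.39 larger in KO, SE 0.49, adjusted p = 0.0419), against 11.2% of genes called higher, and that call was lost on leaving out any 1 of 7 of the 12 libraries (adjusted p 0.0591 to 0.216). In WT cells, leaving out M0 vehicle replicate 1 or replicate 3 reduced the 6 calls to 3, which were Gbp6, Gbp7 and Igtp. The lost WT calls then had adjusted p-values of 0.052 to 0.098. Leaving out 1 WT M1 library lost Gbp3 and Gbp5 (replicate 1, 0.063 and 0.052) or Gbp3 (replicate 2, 0.0531). In KO cells the Iigp1 call was lost in 8 of 13 alternatives, among them each library left out (adjusted p 0.0525 to 0.145). The Irgm1 call there was lost without KO M0 vehicle replicate 1 (0.092) or 3 (0.0532) or KO M1 vehicle replicate 3 (0.0935). Markers moved between the same groups: the 7 macrophage markers summed to 32252 to 38950 CPM in KO M0 and 16073 to 25150 CPM in KO M1 libraries, and to 30189 to 38378 CPM in WT M0 and 43565 to 46541 CPM in WT M1 libraries. The 6 neutrophil markers summed to 577 to 698 CPM in KO M0 and 1535 to 2566 CPM in KO M1 libraries, and to 349 to 646 CPM in WT M0 and 738 to 952 CPM in WT M1 libraries. Their part in the members' M1 response was not tested.

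Of the pathway lists in M1 against M0, 11 of 19 interferon-gamma targets were higher and 0 lower in WT cells, and 12 were higher and 4 lower in KO cells. Of the interferon transcription factors 6 of 10 were higher in WT cells (Irf7 4.05), and in KO cells 4 were higher and 2 lower. Of type I interferon-stimulated genes 13 of 20 and 19 of 20 were higher. In KO cells 5 of 7 ligands, receptors and kinases were lower, where 21.8% of all genes were called lower, among them the receptor chain gene Ifngr1 (log2 fold change -2.12), and 1 was higher. In WT cells 2 of the 7 were higher (Jak2 1.42) and 0 lower.

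**Figure D3:**
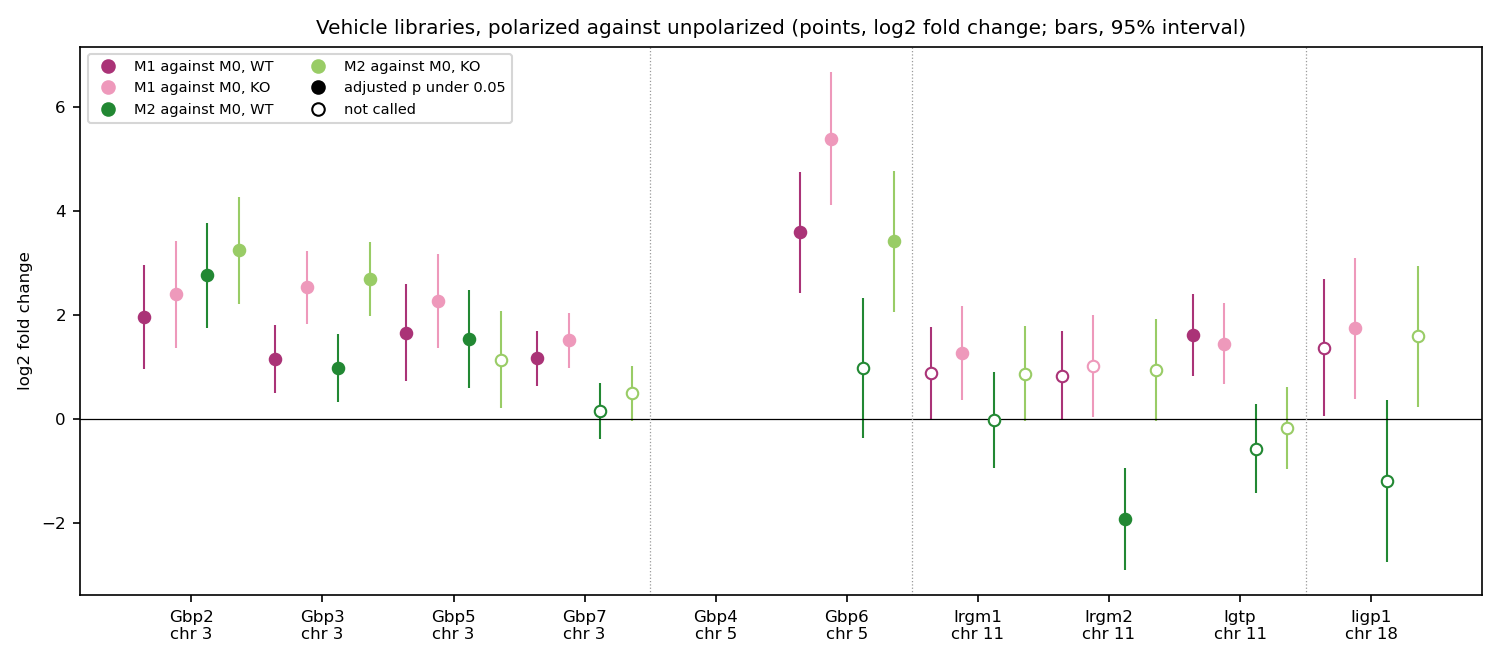
Log2 fold change of each member in M1 and in M2 against M0 vehicle libraries, by genotype; bars are 95% intervals and filled points have an adjusted p under 0.05. Gbp4 has no point, since its M0 libraries held 2 counts in WT and 4 in KO cells, and Irgm2 in WT M2 is the one called point below 0.

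M2 polarization, which adds IL-4 and IL-13, split the members. These comparisons use the same M0 vehicle libraries as the M1 comparisons. In WT cells 3 members were higher in M2 than in M0 (Gbp2, Gbp3 and Gbp5, against 12.7% of genes called higher) and Irgm2 was lower (against 10.7% called lower). In KO cells 3 were higher (Gbp2, Gbp3 and Gbp6, against 20.1% of genes) and 0 lower. Whether the M2 response differs between the genotypes was not tested. Markers moved between the same groups. The 7 macrophage markers summed to 32252 to 38950 CPM in KO M0 and 5894 to 18413 CPM in KO M2 libraries. In WT cells they summed to 30189 to 38378 CPM in M0 and 24908 to 30922 CPM in M2 libraries. Their part in the members' M2 response was not tested.

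Gbp2 in WT M2 cells was at 71.2, 154 and 77.3 CPM, all above the 9.20 to 23.4 CPM of M0 (log2 fold change 2.77, SE 0.51, adjusted p = 0.000284). In KO M2 cells it was at 236, 62.4 and 62.3 CPM against 12.3, 16.6 and 9.20 CPM (3.24, SE 0.53, adjusted p = 3.24e-05). The M2 ranges were thus above the M0 ranges in both genotypes, with 1 library of each far above its fellows. Gbp3 in KO cells went from 6.03, 3.08 and 2.70 CPM to between 16.9 and 30.8 CPM in the 3 M2 libraries (2.69, SE 0.36, adjusted p = 7.22e-07), and in WT cells its log2 fold change was 0.98 (SE 0.34, adjusted p = 0.0322).

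Gbp5 in WT cells went from 1.12, 4.78 and 2.30 CPM to 7.51, 9.35 and 6.97 CPM (1.53, SE 0.48, adjusted p = 0.0185), and in KO cells it was at 1.14 (SE 0.47, adjusted p = 0.0559). Irgm2 in WT cells went the other way, from 22.9, 25.1 and 13.5 CPM to 8.63, 5.73 and 1.58 CPM (-1.92, SE 0.50, adjusted p = 0.00546), and the ranges do not overlap. Its overlapping neighbour Igtp was at -0.58 (adjusted p = 0.366). In KO cells Gbp6 rose by 3.41 (SE 0.69, adjusted p = 0.000295), with M2 libraries at 2.39, 9.46 and 18.8 CPM, and without the highest, replicate 3, which stood apart by its markers, by 2.66 (adjusted p = 0.00521). Without that library Igtp was called lower in KO M2 cells (-1.07, adjusted p = 0.0311), and Iigp1 was at -0.70 (adjusted p = 0.385), Irgm2 at -0.10 (adjusted p = 0.896) and Gbp7 at -0.01 (adjusted p = 0.986). Leaving out KO M2 vehicle replicate 2 added Gbp7 and Iigp1 to the members called higher. Gbp4 had 32 counts over the KO M2 and 4 over the KO M0 libraries.

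The WT calls of Gbp2 and Irgm2 held in all 13 alternatives. Those of Gbp3 and Gbp5 did not, and without WT M0 vehicle replicate 1 their adjusted p-values were 0.164 and 0.112, without M0 replicate 3 they were 0.127 and 0.0638, and without M2 replicate 2 they were 0.0942 and 0.063, with 2 members called each time. Without M2 replicate 3 Gbp3 alone was lost (0.0709). Of the pathway, the kinase gene Jak2 was higher in WT M2 cells (2.02), as were Irf1 (2.20) and the inhibitors Socs1 (3.66) and Cish (7.00). Of 19 interferon-gamma targets 10 were higher and 1 lower in WT cells, led by the class II genes H2-Eb1 (4.51) and Cd74 (4.23), and 11 were higher and 0 lower in KO cells. Of 20 type I interferon-stimulated genes 0 were called by edgeR in WT cells, with 2 at an unadjusted p under 0.05, as were 35.4% of all genes. In KO cells 10 were higher.

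The vehicle libraries of KO and WT cells, the same as used above, differed in few members. In M0 cells Irgm2 alone was called, lower in KO cells at 11.0, 6.46 and 2.16 CPM against 22.9, 25.1 and 13.5 CPM in WT cells (log2 fold change -1.64, SE 0.49, adjusted p = 0.0101), against 16.8% of genes called lower. In M1 cells it was again the 1 member called, at 8.52, 18.2 and 13.2 CPM in KO against 37.9, 35.2 and 36.5 CPM in WT cells (-1.45, SE 0.45, adjusted p = 0.0331), against 5.71% of genes called lower. KO libraries lay below WT libraries in both. Without KO M0 vehicle replicate 3 the M0 call was lost (adjusted p = 0.0737), and the M1 call was lost without any 1 of 5 libraries (0.0738 to 0.149) and with total-count scaling (0.0698).

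In M1 cells 5 members had KO libraries all above the WT libraries, against 17.3% of genes, with none called, and Gbp7 came nearest (0.69, SE 0.26, adjusted p = 0.0791). The macrophage marker sum was 16073 to 25150 CPM in these KO and 43565 to 46541 CPM in these WT libraries, and the neutrophil marker sum 1535 to 2566 CPM against 738 to 952 CPM, and their part in these differences was not tested. In M2 cells 0 members were called by edgeR, against 3.56% of genes, 6 had an unadjusted p under 0.05, as did 19.3% of genes, and DESeq2 called 1. Iigp1 there was at 1.59, 5.86 and 49.1 CPM in KO and 5.29, 2.71 and 1.90 CPM in WT cells (2.48, SE 0.76, adjusted p = 0.0636). Without KO M2 vehicle replicate 3, which stood apart by its markers, the log2 fold change of Iigp1 was 0.19 (adjusted p = 0.937). Gbp4 had 32 counts in KO and 3 in WT M2 cells. The macrophage marker sum was 5894 to 18413 CPM in these KO and 24908 to 30922 CPM in these WT M2 libraries. Its part in the M2 differences was not tested. Without KO M2 vehicle replicate 1 the count of members called was 3, which may include Gbp4. The share of all genes called in that fit is not given here.

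AP-3-84 was compared with vehicle within each of the 8 populations. At least 1 member was called in 3 of them: thio, WT M2 and KO M0. WT M2 cells had the most calls downward and KO M0 cells the most upward.

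**Figure D4:**
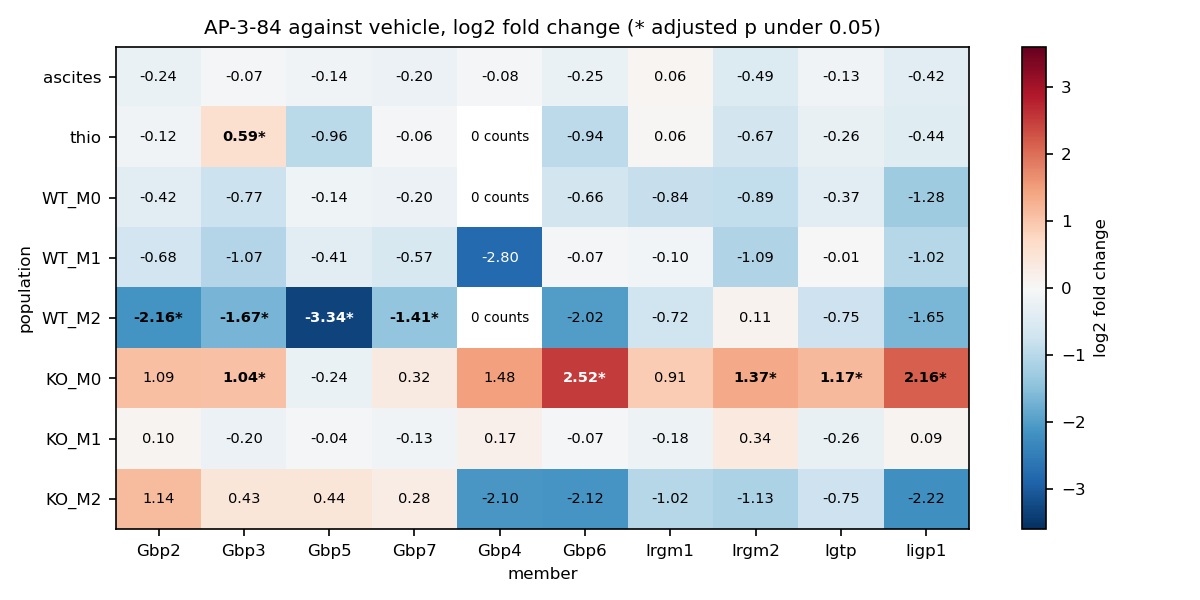
Log2 fold change of each member with AP-3-84 against vehicle in the 8 populations; bold values with an asterisk have an adjusted p under 0.05, and cells marked 0 counts have no Gbp4 count in the AP-3-84 group. The called values are 4 negative ones in WT M2, 5 positive ones in KO M0 and Gbp3 in thio. The Gbp4 values shown are a description only, since it passed the filter only through its high groups.

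In WT M2 cells 4 members were lower with AP-3-84, Gbp2, Gbp3, Gbp5 and Gbp7, against 0.976% of 11779 genes called lower. These 4 are the chromosome 3 members. The 5 others tested, on other chromosomes, were not called, and whether the 4 differ from the 5 was not tested. Leaving Gbp4 aside, 8 of 9 log2 fold changes were negative, with a median of -1.65 beside 0.000985 over all genes.

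Gbp5 was at 7.51, 9.35 and 6.97 CPM with vehicle and at 0, 0.536 and 1.67 CPM with the compound (log2 fold change -3.34, SE 0.59, adjusted p = 0.00171). Gbp7 was at 50.9, 31.7 and 26.6 CPM with vehicle and at 13.3, 13.9 and 13.9 CPM with the compound (-1.41, SE 0.30, adjusted p = 0.00919). Gbp3 was at 13.4, 16.9 and 15.2 CPM with vehicle and at 4.01, 2.95 and 7.23 CPM with the compound (-1.67, SE 0.36, adjusted p = 0.0112). Each set of 3 treated libraries lay below its vehicle libraries. Gbp2, the most abundant member in these cells, was at 71.2, 154 and 77.3 CPM with vehicle and at 8.95, 11.8 and 46.7 CPM with the compound (-2.16, SE 0.50, adjusted p = 0.0281). The third treated library was well above the other two, yet still below every vehicle library. In all, 5 members had treated libraries below all vehicle libraries, against 8.78% of genes.

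Of the members not called, Igtp, the fifth whose libraries did not overlap, was at 17.8, 10.3 and 8.87 CPM with vehicle and at 7.41, 8.31 and 6.39 CPM with the compound (-0.75, SE 0.48, adjusted p = 0.598). Gbp6 was at -2.02 (SE 0.81, adjusted p = 0.282), Iigp1 at -1.65 (SE 1.07, adjusted p = 0.601), Irgm1 at -0.72 (SE 0.50, adjusted p = 0.644) and Irgm2 at 0.11 (SE 0.55, adjusted p = 0.965). Gbp4 had 3 counts with vehicle and 0 with the compound, and no fold is given. Genes within 1000000 bases of the chromosome 3 members that are not members were looked at after the members' values were seen. By edgeR 0 of the 5 tested were called and 0 had an unadjusted p under 0.05, with Pdlim5 at 0.47, Gbp2b at -1.20, Kyat3 at -0.53, Gtf2b at 0.43 and Pkn2 at 0.08.

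Of the 4 calls, that of Gbp5 was lost in 1 alternative, the fit on the compared libraries alone (adjusted p = 0.0576, range over alternatives 1.07e-07 to 0.0576). Without AP-3-84 replicate 1 or replicate 2, 1 member remained called in each case, and the adjusted p-values of the lost calls were 0.0995 and 0.139 for Gbp3, 0.203 and 0.2 for Gbp2, and 0.0743 and 0.063 for Gbp7. Without vehicle replicate 1 the Gbp7 call was lost (adjusted p = 0.108), and without vehicle replicate 2 the Gbp2 call (adjusted p = 0.147).

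Marker genes moved in the same libraries. The 6 neutrophil markers summed to 3996, 586 and 466 CPM with vehicle and to 666, 505 and 238 CPM with the compound, with Ly6g at most 1.11 CPM. The 12 T and NK cell markers summed to 444, 141 and 38.6 CPM with vehicle and to 17.0, 19.8 and 11.4 CPM with the compound, nearly all Ccl5, and Cd3e and Ncr1 were at 0 in all 6 libraries. The 7 macrophage markers summed to 24908 to 30922 CPM and 23402 to 26295 CPM. Their part in the members' change was not tested.

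The same contrast in KO M2 cells called 0 members by edgeR, against 0.0509% of genes, with 5 at an unadjusted p under 0.05, as were 12.3% of genes, and 0 by DESeq2. Gbp2 was at 236, 62.4 and 62.3 CPM with vehicle and at 211, 313 and 270 CPM with the compound (1.14, SE 0.46, adjusted p = 0.298). Gbp3, Gbp5 and Gbp7 were at 0.43, 0.44 and 0.28. Gbp6 was at -2.12 (SE 0.60, adjusted p = 0.169) and Iigp1 at -2.22 (SE 0.74, adjusted p = 0.217), both highest in vehicle replicate 3, which stood apart by its markers. Without that replicate the values were -1.36 for Gbp6 (adjusted p = 0.815) and 0.08 for Iigp1 (adjusted p = 0.998). The 7 macrophage markers summed to 5894 to 18413 CPM with vehicle and 13836 to 19080 CPM with the compound, and their part was not tested. Without vehicle replicate 1, 3 members were called, and without AP-3-84 replicate 1, 1 was. These counts may include Gbp4, and the share of all genes called in these fits is not given here.

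The difference between the genotypes in the M2 response to AP-3-84 passed the test for the same chromosome 3 members, against 1.08% of genes called higher. It was 3.78 for Gbp5 (SE 0.74, adjusted p = 0.00584), 3.30 for Gbp2 (SE 0.68, adjusted p = 0.0135), 2.10 for Gbp3 (SE 0.47, adjusted p = 0.0177) and 1.69 for Gbp7 (SE 0.40, adjusted p = 0.0226), each as KO minus WT on the log2 scale. Gbp5 held in all 19 alternatives, with an adjusted p of at most 0.0451. Without WT M2 AP-3-84 replicate 1 or KO M2 vehicle replicate 2 only Gbp5 remained called, and without WT M2 AP-3-84 replicate 2 the count was 2. The lost calls had adjusted p-values of 0.0553 to 0.0926. Without KO M2 vehicle replicate 3 the Gbp2 call was lost (adjusted p = 0.0508), and the Gbp7 call was lost without WT M2 vehicle replicate 1 (0.069) or KO M2 AP-3-84 replicate 3 (0.0776). The macrophage marker sums of the WT M2 and KO M2 libraries, given above, differ as well. Their part in the genotype difference was not tested.

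**Figure D5:**
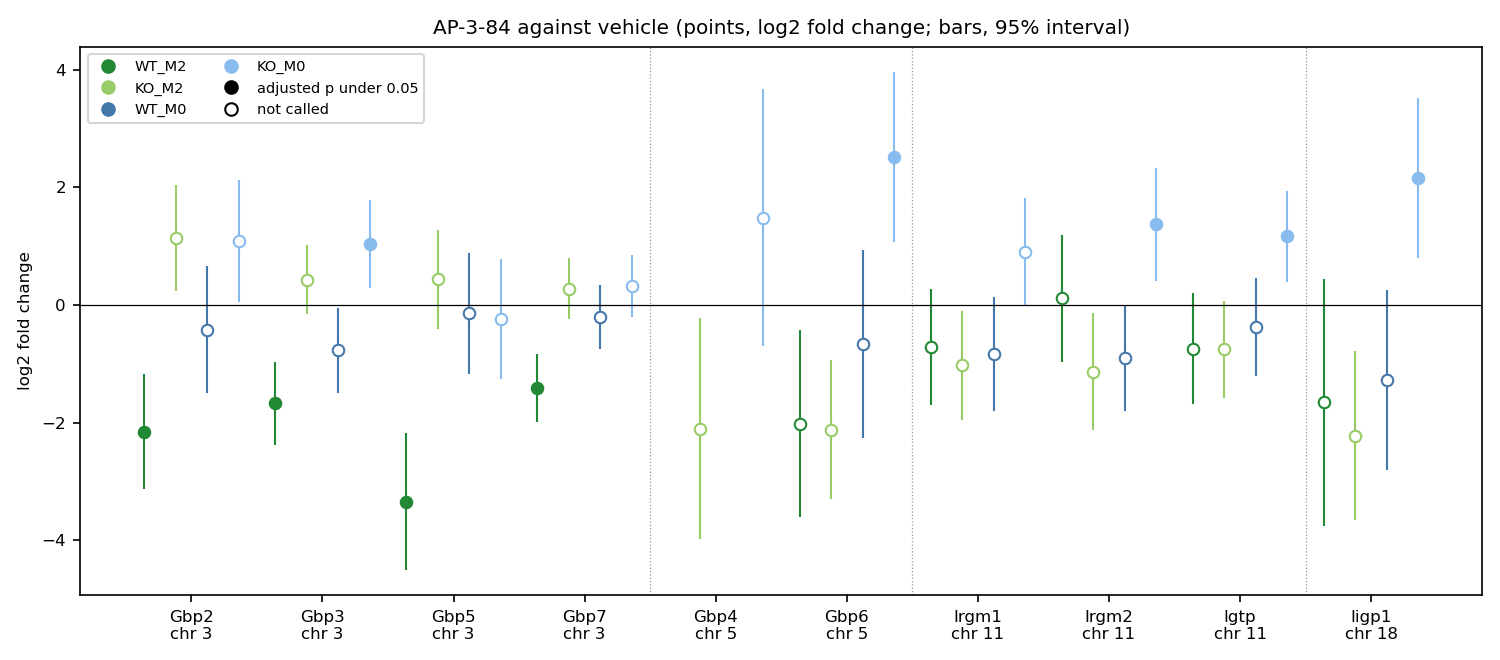
Log2 fold change of each member with AP-3-84 against vehicle in M0 and M2 cells of each genotype; bars are 95% intervals and filled points have an adjusted p under 0.05. In M2 cells the WT and KO values of Gbp2, Gbp3, Gbp5 and Gbp7 lie on opposite sides of 0. Gbp4 has no point in WT cells. Its KO points rest on 4 vehicle and 13 AP-3-84 counts in M0 and 32 and 6 in M2. They are a description only, since Gbp4 passed the filter only through its high groups.

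In KO M0 cells 5 members were higher with AP-3-84: Gbp3, Gbp6, Irgm2, Igtp and Iigp1. The background here was wide, with 12.1% of 11779 genes called higher. In 6 members the treated libraries were all above the vehicle libraries, against 15.4% of genes, and the median of the 9 tested was 1.09 beside -0.03 over all genes.

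Iigp1 was at 7.86, 7.39 and 3.52 CPM with vehicle and at 32.8, 36.3 and 14.8 CPM with the compound (log2 fold change 2.16, SE 0.69, adjusted p = 0.0266). Gbp6 was at 0.786, 1.54 and 0.541 CPM with vehicle and at 4.55, 6.91 and 5.03 CPM with the compound (2.52, SE 0.74, adjusted p = 0.0151). Its vehicle libraries held 10 counts in all, so this fold is a description. Igtp was at 32.0, 28.9 and 26.2 CPM with vehicle and at 83.9, 79.9 and 32.6 CPM with the compound (1.17, SE 0.39, adjusted p = 0.0338). In all 3 the groups do not overlap, and the third treated library was the lowest for Iigp1 and Igtp. Irgm2 was at 11.0, 6.46 and 2.16 CPM with vehicle and at 22.2, 17.0 and 11.9 CPM with the compound (1.37, SE 0.49, adjusted p = 0.0451). Gbp3 rose by 1.04 (SE 0.38, adjusted p = 0.0481). Of the rest, Gbp2 was at 12.3, 16.6 and 9.20 CPM with vehicle and at 23.7, 31.1 and 25.9 CPM with the compound, but did not pass (1.09, SE 0.53, adjusted p = 0.148). Gbp7 was at 0.32 (adjusted p = 0.426) and Gbp5 at -0.24 (adjusted p = 0.789), so the member that fell most in WT M2 cells was the 1 negative value here.

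None of these 5 calls held in every alternative. The count fell to 0 on leaving out vehicle replicate 3 or AP-3-84 replicate 2, to 1 on leaving out vehicle replicate 2, and to 2 on leaving out replicate 1 of either group. Leaving out AP-3-84 replicate 3 gave 6, and the share of all genes called in that fit is not given here. The replicates differ in markers too: the macrophage markers summed to 38791, 17926 and 29060 CPM in the treated libraries, against 32252 to 38950 CPM with vehicle. Csf1r went from a mean of 6604 to 2844 CPM and Adgre1 from 485 to 1511 CPM. Their part in the members' rise was not tested.

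The interferon lists in KO M0 cells gave 10 of 20 type I interferon-stimulated genes higher and 0 lower, with a list median of 1.49 and Isg20 at 2.64. Of the inhibitors 6 of 9 were higher (Usp18 3.29, Socs1 2.77, Isg15 2.67), of the transcription factors 4 of 10 were higher (Irf7 2.37) and Irf8 was lower, and of the interferon-gamma targets 6 of 19 were higher (Cxcl10 3.20, Cd274 2.21). Of 7 ligands, receptors and kinases 3 were lower, where 8.57% of all genes were called lower, among them Ifngr1 (-0.84) and Ifnar2 (-0.76). In WT M2 cells the same lists gave 3 of 19 interferon-gamma targets lower (Ifi47 at -1.38, adjusted p = 0.0218, and Psmb10 at -0.91) and the kinase gene Jak2 lower (-0.86, SE 0.20, adjusted p = 0.0218). By edgeR 0 of 20 type I genes were called there, with 9 at an unadjusted p under 0.05, as were 11.8% of all genes. Their list median was -1.02. Gsdmd, whose product forms membrane pores once caspases cut it, was also lower (-0.84, adjusted p = 0.0267).

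In WT M0 cells 0 members were called by edgeR, against 0.144% of genes, with 1 at an unadjusted p under 0.05, as were 9.4% of genes, and 0 by DESeq2. Leaving Gbp4 aside, all 9 log2 fold changes were negative, from -1.28 (Iigp1) to -0.14 (Gbp5), with adjusted p-values of at least 0.519. Vehicle replicate 2 was the highest of its group for all 10 members, with a summed level of 149 CPM against 93.8 and 100 CPM. The difference between the genotypes passed for 4 members, Iigp1 (3.44, SE 1.04, adjusted p = 0.0233), Gbp6 (3.18, SE 1.11, adjusted p = 0.0475), Irgm2 (2.27, SE 0.67, adjusted p = 0.0197) and Gbp3 (1.81, SE 0.53, adjusted p = 0.0169), each higher in KO cells, against 10% of genes. Without KO M0 vehicle replicate 3 the count was 0, without KO M0 AP-3-84 replicate 2 it was 1, and without KO M0 AP-3-84 replicate 1, WT M0 vehicle replicate 2, or WT M0 AP-3-84 replicate 1 or 2 it was 2.

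In M1 cells, where the members are induced, 0 members were called in either genotype. In WT M1 cells, against 0.017% of genes, 3 had an unadjusted p under 0.05, as did 7.28% of genes, and DESeq2 called 0. All 9 values apart from Gbp4 were negative, from -1.09 to -0.01, and 5 members had treated libraries below all vehicle libraries, against 8.73% of genes. Irgm2 was at 37.9, 35.2 and 36.5 CPM with vehicle and at 17.6, 15.9 and 17.9 CPM with the compound, yet did not pass (-1.09, SE 0.45, adjusted p = 0.548). Gbp3 was at 19.1, 17.5 and 14.6 CPM with vehicle and at 8.33, 8.07 and 7.94 CPM with the compound (-1.07, SE 0.34, adjusted p = 0.404). The test shares 1 spread over 36 libraries. On the 6 libraries alone 2 members were called, and the share of all genes called in that fit is not given here. In KO M1 cells 0 members were called (0% of genes were), 0 had an unadjusted p under 0.05, as did 1.75% of genes, and DESeq2 called 0, with values from -0.26 to 0.34 for the 9 members apart from Gbp4. The KO M1 AP-3-84 replicate 1 stood apart by its markers, and 0 members were called on leaving out any 1 library. The genotype difference in M1 was called for 0 members, against 0.00849% of genes, with 1 at an unadjusted p under 0.05, as were 7.05% of genes, and 0 by DESeq2.

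In ascites macrophages, where the members stood highest, 0 were called with AP-3-84 by edgeR, against 1.79% of 16955 genes, 3 had an unadjusted p under 0.05, as did 10.6% of genes, and DESeq2 called 1, Iigp1. Iigp1 went from 129, 136 and 122 CPM to 98.9, 104 and 86.8 CPM (-0.42, SE 0.14, adjusted p = 0.2) and Irgm2 from 85.1, 91.0 and 63.3 CPM to 47.8, 69.2 and 53.0 CPM (-0.49, SE 0.16, adjusted p = 0.197). In 3 members the treated libraries were all below the vehicle libraries, against 6.41% of genes. Of the 9 values apart from Gbp4, 8 were negative, with a median of -0.20 beside -0.00482 over all genes. In thio macrophages 1 member was higher, Gbp3, from 7.85, 6.07 and 6.94 CPM to 7.88, 11.8 and 11.7 CPM (0.59, SE 0.15, adjusted p = 0.0398), against 2.51% of genes. The groups barely separate, and the call was lost in 9 of 13 alternatives (range 0.000287 to 0.771), among them each vehicle library left out (0.0533 to 0.179) and AP-3-84 replicate 2 or 3 left out (0.168 each). Irgm2 was at 12.8, 11.3 and 14.5 CPM with vehicle and 8.52, 8.96 and 6.76 CPM with the compound (-0.67, SE 0.18, adjusted p = 0.0585). Gbp4 had 4 counts with vehicle and 0 with the compound, too few for a fold to be given. The difference between the ascites and thio responses was called for 0 members, against 0.118% of genes, with 1 at an unadjusted p under 0.05, as were 7.64% of genes, and 0 by DESeq2.

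The members varied together across libraries, by correlations taken over all 10 members. These pairs and means include Gbp4, which passed the filter only through its high groups, so its part in them is a description only. Over the 36 BMDM libraries the 45 pairwise correlations of log2 levels ran from -0.108 to 0.905, with a median of 0.637. After each group's mean was removed the median was 0.365, with a range from -0.271 to 0.745. Over the 12 peritoneal libraries the median was 0.976, with the libraries in 2 separate sets, ascites and thio, and it was -0.00446 once group means were removed. Libraries were scaled together within each set, the labels used here give no batch, and these values are a description. The genes whose level followed the mean of the members most closely in BMDM, of 8423 ranked, were Phf11b (r = 0.931), Tap1 (0.924), Ifi206 (0.921), Phf11a (0.920) and Herc6 (0.919). In the peritoneal libraries, of 9001 ranked, they were Ifi209, Ifi27l2a, Lgals3bp, Slfn4 and Ifi203, each at 0.999.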

How the data were processed

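Mouse macrophage RNA was made into QuantSeq 3′ tag libraries and read as 75-base single reads, per the labels' protocols. The authors deposited 1 table of raw counts per gene for 48 libraries, which is where this work starts. The submitters' processing notes name Bowtie2, RSEM and DESeq2, without versions. Their order, the build and annotation, and whether molecular identifiers were used, are not given in these sources. All values are whole numbers, and 0 of 37 mitochondrial genes are in the table.

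Counts were fitted with edgeR 4.0.16 (R 4.3.3, limma 3.58.1): TMM scaling, the filterByExpr rule by group with a minimum count of 10, and the robust quasi-likelihood test. The 12 peritoneal libraries (16955 genes tested) and the 36 BMDM libraries (11779 genes) were fitted apart, 1 mean per group and no block. There were 21 comparisons, tested two-sided with Benjamini-Hochberg adjustment over all genes tested and called at an adjusted p under 0.05. SEs are the log2 fold change over the square root of F. The script was tested on simulated data. Groups came from the sample names; the genotype entry, wild-type for all BMDM, was not used.

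Alternatives were median-ratio scaling, total-count scaling, no filter, a replicate block, the compared libraries alone, all 48 libraries together, DESeq2 1.42.0, and leaving out each library. Replicate numbers are shared between groups without a stated meaning. Same-numbered libraries deviated together (every correlation over 0.1) in 1 of 16 comparisons, M2 against M0 in WT. No 2 libraries were identical.

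All 10 members were reported, Gbp4 by its counts and levels since it passed the filter only through its high groups. From each pathway list the counts and up to 4 called genes were given, by size of change, requiring a mean log2 CPM of at least 3. Members and lists were chosen with earlier results of these data known. One gene of the lists is not reported here by name.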

Additional observations from a re-analysis of the deposited data

Results flagged for a closer look

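The response to AP-3-84 differed between KO and WT cells, by a test of the difference itself, for the following members, with each value given as KO minus WT on the log2 scale. In M0 cells, where 10% of genes were called higher in this test, the difference was 1.81 for Gbp3, 3.18 for Gbp6, 2.27 for Irgm2 and 3.44 for Iigp1. In M2 cells, where 1.08% were, it was 3.30 for Gbp2, 2.10 for Gbp3, 3.78 for Gbp5 and 1.69 for Gbp7. The members that differed in M0 cells and those that differed in M2 cells have Gbp3 in common. The change from M0 to M1 in vehicle libraries differed between the genotypes for Gbp3, by 1.39, where 11.2% of genes were called higher, and that call was lost without any 1 of 7 of the 12 libraries (adjusted p 0.0591 to 0.216).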

How the results depend on the processing

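Counts here include Gbp4, which passed the filter only through its high groups. The shares of all genes called in each alternative are not given here. The counts therefore describe how stable the calls were, and do not set the members against other genes. Of 55 member calls over the 21 comparisons, 26 held in every alternative run. Of 3009 recomputed values 0 reversed a called direction, 134 lost and 86 gained a call. The number of members called, in brackets as reported, moved by over 1.5 times as follows, and the cause was not tested. With no filter on low counts it was 2 for AP-3-84 in ascites (0), 3 in thio (1), 1 in WT M0 (0), 1 in WT M1 (0) and 4 in KO M2 (0), 7 for M2 against M0 in KO (4), 3, 3 and 6 for KO against WT in M0 (1), M1 (1) and M2 (0), 1 for the AP-3-84 response of ascites minus thio (0), 7 for that of KO minus WT in M0 (4), and 2 for the M1 response of KO minus WT (1). With DESeq2 it was 1 for AP-3-84 in ascites, 3 in thio, and 2 and 1 for KO against WT in M0 and M2. On the compared groups alone it was 2 for AP-3-84 in WT M1, 1 in WT M2 (4) and 3 in KO M0 (5), 2 for M2 against M0 in WT (4) and in KO (4), 2 and 5 for KO against WT in M0 and M1, 2 for the AP-3-84 response of KO minus WT in M2 (4), and 2 for the M1 response of KO minus WT. With all 48 libraries it was 0 for AP-3-84 in thio and 2, 2 and 1 for KO against WT in M0, M1 and M2. Median-ratio scaling gave 0 in thio, and total-count scaling gave 2 in KO M0 and 1 for KO against WT in M2. Smaller moves, leaving no library out, took M1 against M0 to between 6 and 9 in WT (7) and between 8 and 10 in KO (9), AP-3-84 in WT M2 to at most 5 (4) and in KO M0 to at most 6 (5), and M2 against M0 in WT to at most 5 (4).

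With the replicate block the count was 0 for AP-3-84 in thio and 3 in KO M0, 8 for M1 against M0 in KO and 3 for the AP-3-84 response of KO minus WT in M0, and was as reported in the other comparisons. In M2 against M0 in WT, where same-numbered libraries deviated together, the block kept the same 4 calls. What the numbers mark is not stated, and the other comparisons share only numbers. Leaving out 1 library gave 0 to 1 for AP-3-84 in ascites and in thio, 1 to 4 in WT M2, 0 to 6 in KO M0 and 0 to 3 in KO M2. It gave 3 to 7 and 7 to 8 for M1 against M0 in WT (7) and KO (9), 2 to 4 and 3 to 6 for M2 against M0, and 0 to 2, 0 to 2 and 0 to 3 for KO against WT in M0, M1 and M2. For the AP-3-84 response of KO minus WT it gave 0 to 6 in M0 and 1 to 4 in M2, and for the M1 response 0 to 1. Of 160 group levels, 3 moved by over 1 SD with median-ratio scaling and 13 with total-count scaling. Depth limits Gbp4 most, with 1574 counts in 48 libraries.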
